A study of Mus musculus with 6 samples.

Results

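The interferon regulatory factors are transcription factors that share an amino-terminal DNA-binding domain and bind interferon-stimulated response elements and related sites. Their genes were taken by symbol: Irf1, Irf2, Irf3, Irf4, Irf5, Irf7, Irf8 and Irf9, 8 of the 25124 gene rows in the deposited table, with 1 transcript row each. All 8 passed the filter on low values and none was chosen by its measured level.

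RNA was sequenced from macrophages sorted by flow cytometry from the colonic lamina propria, in 3 wild type and 3 transgenic libraries. All mice were C57BL/6 and 8 weeks old. All had received 2.0% dextran sulfate sodium, which injures the colonic epithelium, in the drinking water for 7 days, then plain water for 7 days, with collection on day 14, so no group without colitis was analysed. The transgenic mice overexpress E4BP4, the leucine zipper protein of the Nfil3 gene, in macrophages. The labels name neither the promoter that drives the transgene nor the number of transgenic lines. The genotype labels of transgenic replicates 2 and 3 differ from that of replicate 1 in the last digit of the gene name, and the titles, which name E4BP4 in all 3, were followed. The labels do not say that each library is a mouse of its own, so p-values reflect only how far these libraries spread, and that spread could be technical. In addition, fewer cells of a type and less RNA per cell cannot be told apart in bulk libraries.

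Nfil3 had TPM values (transcript abundance scaled for length and depth) of 117, 120 and 119 in wild type libraries, against 133, 134 and 141 in transgenic ones. The sorted cells carried macrophage transcripts, with Adgre1, which encodes F4/80, at 361 ± 1.63 and 426 ± 2.82 TPM (SD, n = 3 each). Library depth, as reads in genes recovered from the TPM values, was 13.97 to 15.06 M reads. Over 12633 genes tested with limma on log2(TPM + 1), 21.9% had a Benjamini-Hochberg adjusted p below 0.05, the threshold for a call, 8.71% being higher and 13.2% lower in transgenic libraries. With upper-quartile scaling 52.0% of the calls were higher in place of 39.8%.

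As background, the family divides by role. Irf3 and Irf7 are phosphorylated downstream of nucleic acid sensors and drive type I interferon genes, Irf9 joins STAT2 in the complex that interferon receptors activate, and Irf5 serves inflammatory cytokine genes downstream of Toll-like receptors. Irf1 is induced by interferon-gamma and activates antigen-presentation genes, while Irf2 binds the same elements and is known mainly as its antagonist. Irf4 and Irf8 bind weakly alone and act with partners such as PU.1 and BATF factors in dendritic cells, macrophages and B cells.

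The 250 bases before the transcription start of each member's row were read from RefSeq (GRCm38.p6, the assembly also named mm10), and all 8 members matched. They were searched on both strands for GAAANNGAA, the core of an interferon-stimulated response element, for TTCNNNGAA, the gamma-activated site bound by STAT dimers, and for TTANGTAA, the site bound by E4BP4. The first pair of motifs can overlap in sequence. Over 32851 windows of the same length, those of all entries in the RefSeq promoter set, 7.13% held the response element core, 7.02% the gamma-activated site and 2.06% the E4BP4 site. Among the members, Irf2 held the response element core, and 3 (Irf1, Irf2 and Irf8) held the gamma-activated site. No window of the 8 held TTANGTAA, which says only that these letters are not in that window. Irf1, Irf8 and Irf9 each have another start in the RefSeq promoter set, and the windows of those starts were not searched for the members. The upstream windows with a match are shown first, and that of Irf4, which had the largest ratio of means without a match, last. Capitals mark the matches and all 4 windows are on the plus strand, at chr11:53769764-53770013 for Irf1, chr8:46739495-46739744 for Irf2, chr8:120736108-120736357 for Irf8 and chr13:30748983-30749232 for Irf4.
Irf1: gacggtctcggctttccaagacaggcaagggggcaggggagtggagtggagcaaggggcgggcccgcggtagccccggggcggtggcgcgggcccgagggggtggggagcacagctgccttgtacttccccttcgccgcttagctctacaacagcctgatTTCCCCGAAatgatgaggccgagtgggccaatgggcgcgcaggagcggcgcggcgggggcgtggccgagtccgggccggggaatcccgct
Irf2: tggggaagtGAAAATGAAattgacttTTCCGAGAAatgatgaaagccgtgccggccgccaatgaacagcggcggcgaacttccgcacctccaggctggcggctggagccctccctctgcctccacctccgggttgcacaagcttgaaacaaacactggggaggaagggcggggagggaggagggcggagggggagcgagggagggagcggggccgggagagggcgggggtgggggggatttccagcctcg
Irf8: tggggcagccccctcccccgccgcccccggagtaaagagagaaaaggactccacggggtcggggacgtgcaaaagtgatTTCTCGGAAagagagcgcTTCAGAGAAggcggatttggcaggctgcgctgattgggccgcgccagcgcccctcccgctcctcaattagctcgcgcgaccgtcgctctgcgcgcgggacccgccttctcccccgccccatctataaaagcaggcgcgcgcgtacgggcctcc
Irf4: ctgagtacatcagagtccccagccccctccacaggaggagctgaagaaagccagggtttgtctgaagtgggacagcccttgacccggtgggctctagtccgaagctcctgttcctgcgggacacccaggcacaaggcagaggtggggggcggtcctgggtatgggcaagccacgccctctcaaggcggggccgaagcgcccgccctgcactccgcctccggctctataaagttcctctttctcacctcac

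The comparison of transgenic with wild type libraries asks which of these factors differ in level between the genotypes. The Nfil3 row itself differed little, with a log2 fold change of 0.19 (limma adjusted p = 0.00261), and 0.09 in the authors' deposited table. Whether this row counts reads of the transgene was not tested. The 0.19 is below the values of Irf1, Irf4, Irf7 and Irf9 given further on. Of the 8 members, 5 rose (Irf1, Irf4, Irf5, Irf7 and Irf9), 0 fell and 3 did not pass the test (Irf2, Irf3 and Irf8), beside 8.71% of all tested genes called higher and 13.2% called lower. The median log2 fold change of the 8 was 0.24, against -0.01 over all tested genes. For 6 members every transgenic library lay above every wild type library, which held for 17.1% of all tested genes. The rises were of moderate size, the ratio of means being 1.40 for Irf4, 1.39 for Irf1, 1.32 for Irf7, 1.26 for Irf9 and 1.12 for Irf5. In the authors' deposited table, whose row for each gene covers the gene span rather than the exons, 6 members were called higher at an adjusted p below 0.05, the same 5 and Irf2, and 0 lower.

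**Figure D1:**
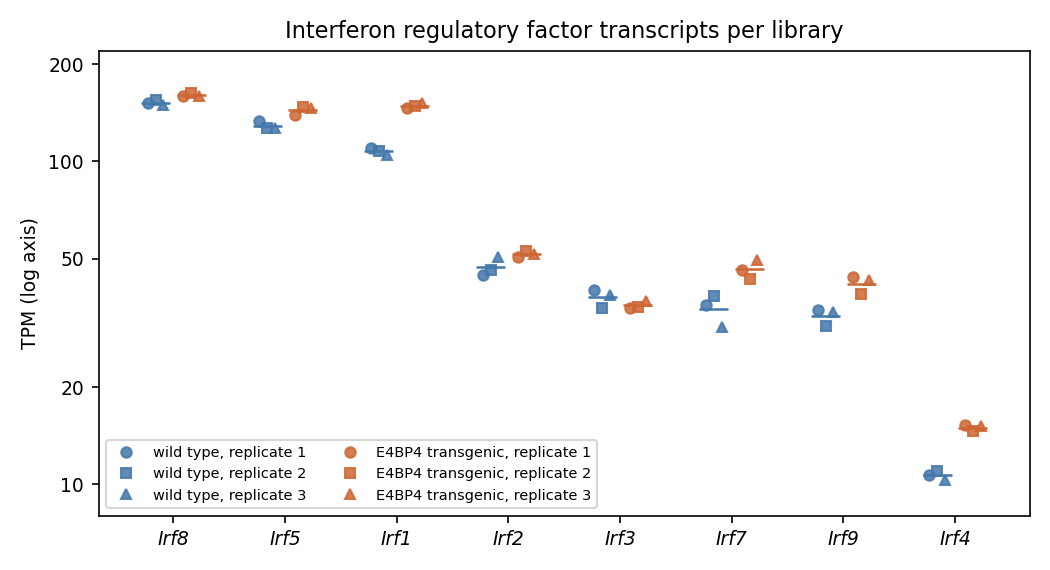
TPM of the 8 interferon regulatory factors on a log axis, ordered by wild type mean, with 1 point per library (blue wild type, orange transgenic, shape for the replicate number) and a bar at each group mean of 3 libraries. Irf1 stands at 105 to 110 TPM in wild type and at 146 to 152 TPM in transgenic libraries, while the points of Irf2 and Irf3 overlap between groups.

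Irf1, which activates antigen-presentation and guanylate-binding protein genes, lies on chromosome 11 at 53770014 to 53777324, plus strand (NM_008390, mm10), and its exons total 2126 bases. A predicted gene on the opposite strand, Gm17334, shares 135 exon bases with Irf1 in GENCODE M21. If the libraries did not keep strand, reads from those bases could not be told apart. Irf1 stood at 110, 107 and 105 TPM in wild type libraries, against 146, 149 and 152 TPM in transgenic ones. The groups were far apart against a coefficient of variation of 2.52% and 1.82% within them. Its log2 fold change was 0.47 ± 0.028 (SE; limma adjusted p = 2.91e-05), with a 95% interval of 0.40 to 0.53, from 8587 and 12251 reads per group. In the authors' deposited table its log2 fold change was 0.41.

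Irf2, the known antagonist of Irf1, lies on chromosome 8 at 46739745 to 46847458, plus strand (NM_008391), and is the longest member gene by span. Its values were 44.6, 46.1 and 50.6 TPM in wild type libraries, against 50.4, 52.6 and 51.8 TPM in transgenic ones. Wild type replicate 3 lay within the transgenic range, so the groups overlapped. The log2 fold change was 0.13 ± 0.051 (SE; limma adjusted p = 0.104), and its 95% interval of 0.02 to 0.25 held only values above 0 before the adjustment over all genes. Without wild type replicate 3 it was 0.18 and passed the threshold (limma adjusted p = 0.0249), as it did with upper-quartile scaling (0.0454) and quantile normalization (0.0372). In the authors' deposited table Irf2 was called, with a log2 fold change of 0.12 and an adjusted p of 0.0426.

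The ratio of Irf1 to Irf2 transcripts per length was 2.47, 2.33 and 2.07 in wild type libraries and 2.90, 2.83 and 2.93 in transgenic ones. The groups did not overlap, and the ratio was 1.26-fold higher in transgenic libraries (exact two-sided permutation test p = 0.10, adjusted p = 0.10 over 4 ratios, the lowest value possible with 3 libraries a group).

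Of the factors activated by nucleic acid sensing, Irf7 rose and Irf3 did not pass the test. Irf7, which interferon itself is known to induce, stood at 35.9, 38.3 and 30.7 TPM in wild type libraries, against 46.2, 43.2 and 49.5 TPM in transgenic ones. It was the most variable of the 8 within groups, with a coefficient of variation of 11.1% and 6.77%, and yet the groups did not overlap. The log2 fold change was 0.40 ± 0.083 (SE; limma adjusted p = 0.0123; 95% interval 0.20 to 0.59). The row of Irf7 lies on chromosome 7 at 141263183 to 141266424, minus strand (NM_001252601), with no overlapping gene in GENCODE M21.

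Irf3, which is made constitutively in most cells, was the only member with a lower mean in transgenic libraries, at 40.0, 35.3 and 38.5 TPM in wild type libraries, against 35.2, 35.3 and 36.9 TPM in transgenic ones. The groups overlapped, and the log2 fold change was -0.08 ± 0.053 (SE; limma adjusted p = 0.329). Its 95% interval, from -0.20 to 0.04, leaves out a rise of the size seen for Irf7. Irf3 lies on chromosome 7 at 44997648 to 45002848, plus strand (NM_016849), and shares 88 exon bases with Bcl2l12 on the opposite strand, a gene at a mean of 11.1 TPM. If the libraries did not keep strand, reads from those bases could not be told apart. The ratio of Irf7 to Irf3 was 0.898, 1.09 and 0.798 in wild type libraries, against 1.31, 1.22 and 1.34 in transgenic ones, 1.40-fold higher without overlap (exact two-sided permutation test p = 0.10, adjusted p = 0.10 over 4 ratios).

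**Figure D2:**
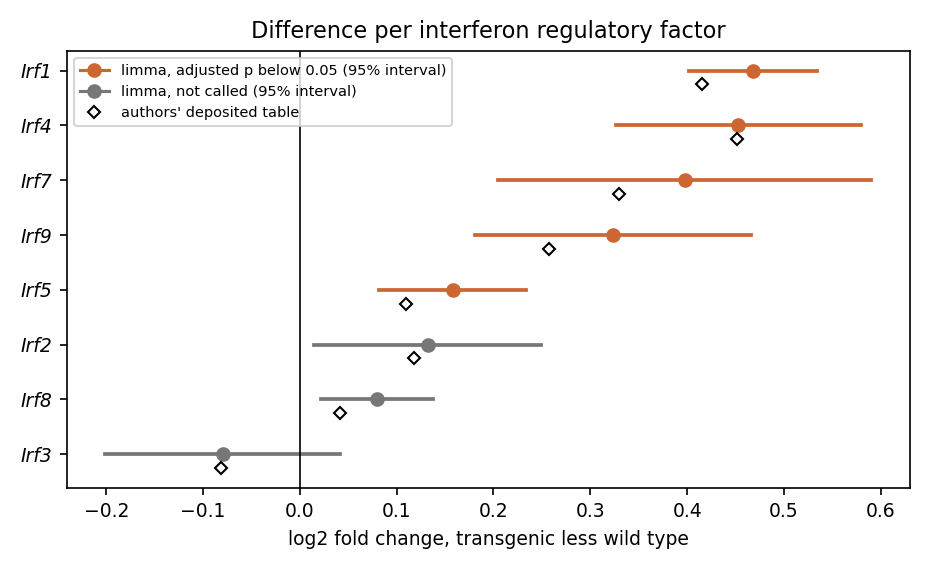
Log2 fold change of each interferon regulatory factor (transgenic less wild type), with circles and 95% intervals from limma on log2(TPM + 1) over 3 libraries per group, and open diamonds from the authors' deposited table. The intervals of Irf1, Irf4, Irf7, Irf9 and Irf5 lie above 0 and these 5 were called, while Irf2 and Irf8 have intervals just above 0 that did not pass adjustment over all genes.

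Irf9, the DNA-binding subunit of the complex with STAT2, lies on chromosome 14 at 55604579 to 55610030, plus strand (NM_001159418). It was at 34.7, 30.9 and 34.1 TPM in wild type libraries, against 43.7, 38.8 and 42.9 TPM in transgenic ones. The lowest transgenic library stood above the highest wild type one, and the log2 fold change was 0.32 ± 0.062 (SE; limma adjusted p = 0.00806; 95% interval 0.18 to 0.47). Its partner gene Stat2 also rose, from 26.2, 27.2 and 25.6 TPM to 35.0, 35.4 and 36.1 TPM, a log2 fold change of 0.42 (limma adjusted p = 0.000307). Irf9 and Stat2 were both higher in each transgenic library than in any wild type library.

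Irf5, a factor of inflammatory cytokine genes, lies on chromosome 6 at 29526625 to 29537320, plus strand (NM_012057). It stood at 133, 127 and 127 TPM in wild type libraries, against 139, 147 and 146 TPM in transgenic ones. The groups did not overlap, but the rise was the smallest of the 5 called, with a log2 fold change of 0.16 ± 0.033 (SE; limma adjusted p = 0.0117; 95% interval 0.08 to 0.23). The call was lost when the variance was modelled without a trend on the mean (limma adjusted p = 0.0696).

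Irf4 and Irf8, which bind composite sites with PU.1 and BATF proteins, stood at opposite ends of the family in level. Irf8, on chromosome 8 at 120736358 to 120756692, plus strand (NM_008320), was the most abundant member per length, at 151, 155 and 149 TPM in wild type libraries, against 160, 163 and 159 TPM in transgenic ones. The groups did not overlap, yet the difference was small, with a log2 fold change of 0.08 ± 0.025 (SE; limma adjusted p = 0.0567; 95% interval 0.02 to 0.14, or 1.02 to 1.10-fold). It passed the threshold with upper-quartile scaling (limma adjusted p = 0.0127) and quantile normalization (0.00987), and in the authors' deposited table it was not called (log2 fold change 0.04, adjusted p = 0.215).

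Irf4, known from alternatively activated macrophages, dendritic cells and plasma cells, was the least abundant member. Its row (chromosome 13, 30749233 to 30766981, plus strand, NM_001347508) held 10.69, 11.03 and 10.32 TPM in wild type libraries, against 15.2, 14.6 and 15.1 TPM in transgenic ones. The spread within groups was 3.32% and 2.19%, so the groups stood well apart, with a log2 fold change of 0.45 ± 0.055 (SE; limma adjusted p = 0.000933; 95% interval 0.33 to 0.58). Depth behind it was 615 to 953 reads per library.

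Ratios to Irf4 were lower in transgenic libraries. The ratio of Irf8 to Irf4 was 14.1, 14.1 and 14.5 in wild type libraries, against 10.5, 11.2 and 10.5 in transgenic ones. That of Irf5 to Irf4 was 12.5, 11.5 and 12.3 in wild type libraries, against 9.12, 10.05 and 9.68 in transgenic ones. Neither ratio overlapped between groups, and they differed by -0.41 and -0.33 on the log2 scale (exact two-sided permutation tests, p = 0.10 and adjusted p = 0.10 over 4 ratios for each).

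**Figure D3:**
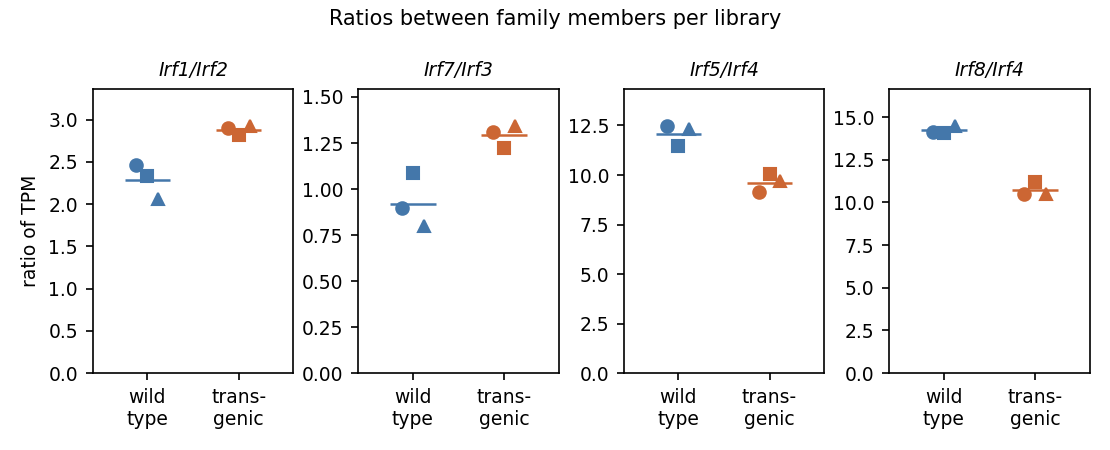
Ratios of TPM between pairs of interferon regulatory factors, with 1 point per library (blue wild type, orange transgenic, shape for the replicate number), a bar at the geometric mean of 3 libraries and axes that start at 0. The ratios Irf1/Irf2 and Irf7/Irf3 are higher and the ratios Irf5/Irf4 and Irf8/Irf4 lower in every transgenic library than in any wild type library.

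The 8 genes together summed to 560, 551 and 545 TPM in wild type libraries, against 636, 643 and 653 TPM in transgenic ones. Irf8, Irf5 and Irf1 together made up 70.3% ± 0.391 of this sum in wild type and 70.4% ± 0.777 in transgenic libraries (SD, n = 3 each). Within that share Irf1 went from 19.4% ± 0.230 to 23.1% ± 0.110 and Irf8 from 27.5% ± 0.625 to 24.9% ± 0.545 (SD, n = 3 each). In wild type the order by mean was Irf8, Irf5, Irf1, Irf2, Irf3, Irf7, Irf9 and Irf4, where the ranges of Irf3 and Irf7, and of Irf7 and Irf9, overlapped and the other neighbours stood apart. In transgenic libraries it was Irf8, Irf1, Irf5, Irf2, Irf7, Irf9, Irf3 and Irf4. There the ranges of Irf1 and Irf5, and of Irf7 and Irf9, overlapped.

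Genes with the most similar profile were sought for the 3 called members with the largest fold changes, by the root mean square difference of log2(TPM + 1), each gene less its wild type mean, over 6 libraries and 8386 named protein-coding genes averaging 5 TPM or more. For Irf1 they were Siglec1 (0.0215), Crip1 (0.0224) and Cd163 (0.0285). Ptpro (0.0214), Tk2 (0.0249) and H2-K1 (0.0324) came nearest to Irf4. For Irf7 they were Plxdc1 (0.0553), Phf11d (0.0594) and Lyrm2 (0.0614), at larger distances. These distances describe 6 libraries in 2 groups and carry no test.

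Upstream of the factors, the sensors, adaptors and kinases that activate Irf3, Irf5 and Irf7 moved in both directions. Of 23 tested genes 6 rose and 2 fell, with a median log2 fold change of -0.0023. The authors' log2 values and voom on recovered reads each gave 4 that fell. Those that rose were sensors and their trafficking factor. Unc93b1, which carries endosomal Toll-like receptors to their compartment, was at 733 ± 6.26 and 821 ± 6.41 TPM (SD of 3 libraries, adjusted p by limma = 0.000173). Tlr9, a sensor of unmethylated DNA, was at 33.3 ± 1.83 and 43.6 ± 1.24 TPM (SD of 3 libraries, adjusted p by limma = 0.00126). The others were Tlr7, Tlr8, Ddx58 and Ifih1. Ikbke, an IRF kinase, fell from 58.2 ± 0.832 to 48.6 ± 0.940 TPM (SD of 3 libraries, adjusted p by limma = 0.00125), and the adaptor gene Myd88 fell from 98.3 to 81.7 TPM. The kinase gene Tbk1 was at 31.4 and 30.4 TPM and the adaptor gene Mavs at 22.6 and 23.2 TPM (limma adjusted p = 0.532 and 0.852).

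Among 10 receptors, JAK kinases and STAT factors, 2 rose, Stat2 among them, and 1 fell, with a median log2 fold change of -0.0006. With the authors' log2 values, as with voom on recovered reads, 3 of these 10 fell. The one that fell was Stat3, the factor of interleukin 6 and interleukin 10 signalling, from 90.7 ± 1.07 to 78.7 ± 1.43 TPM (SD of 3 libraries, adjusted p by limma = 0.00182). The receptor genes Ifnar1 and Ifnar2 were at 60.0 and 136 TPM in wild type libraries, against 58.8 and 141 TPM in transgenic ones (limma adjusted p = 0.550 and 0.444). Of 21 interferon genes 14 were at 0 in all 6 libraries and only Ifnb1 and Ifng passed the filter on low values. Passing it rested on their level in transgenic libraries, where they were high, so their calls carry no support. In the authors' deposited table Ifnb1 was not called and Ifng was called higher. Ifnb1 was at 0, 1.12 and 0 TPM in wild type libraries, against 1.59, 2.02 and 2.65 TPM in transgenic ones, from 11 and 62 reads. The call of Ifnb1 (limma adjusted p = 0.0232) was lost without wild type replicate 1 (0.0699) or 3 (0.0685) and without transgenic replicate 2 (0.0684) or 3 (0.0818). Ifng, a lymphocyte cytokine, was at 0.270, 0.195 and 0.331 TPM against 1.77, 1.22 and 1.19 TPM, from 12 and 65 reads (limma adjusted p = 0.00553).

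Of 11 DNA-binding partners of Irf4 and Irf8, 3 rose and 2 fell (median log2 fold change -0.01). Batf3, which pairs with Irf8 in cDC1 (type 1 conventional dendritic cells), was at 34.7, 36.5 and 37.5 TPM in wild type libraries, against 53.5, 62.7 and 55.8 TPM in transgenic ones (limma adjusted p = 0.000279). Spi1, encoding PU.1, fell from 370 ± 4.05 to 322 ± 9.80 TPM (SD of 3 libraries, adjusted p by limma = 0.00109). Jun rose by 0.20 and Batf2 by 0.51 on the log2 scale, and Jund fell by 0.26. Of the 3 Irf2-binding proteins, co-repressors of Irf2, Irf2bpl fell from 26.5 to 21.1 TPM (limma adjusted p = 0.00959), and Irf2bp1 and Irf2bp2 did not pass the test (0.587 and 0.687). Of 12 negative regulators of interferon signalling 3 rose and 4 fell (median log2 fold change -0.03). The examples by the lowest p were Tnfaip3, which rose from 268 to 335 TPM, the phosphatase gene Ptpn1, which fell from 110 to 89.2 TPM, and Socs3, which fell from 609 to 551 TPM. Without a variance trend Socs3 was not called (limma adjusted p = 0.0606), and 2 of the 12 fell in place of 4.

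Downstream, the lists of genes known as targets differed in their counts. Of 25 interferon-stimulated genes with response elements, 20 rose and 0 fell (median log2 fold change 0.40). Oas2, an antiviral nucleotide synthetase, rose by 0.65, and Rtp4 and Ifi27l2a by 0.82 and 0.81 on the log2 scale. Of 24 interferon-gamma genes linked to Irf1, 18 rose and 1, Socs1, fell (median 0.35). B2m, the light chain of MHC class I, rose from 2489 ± 18.8 to 3078 ± 73.0 TPM (SD of 3 libraries, adjusted p by limma = 2.11e-05), and the class II transactivator gene Ciita and the peptide transporter gene Tap1 rose by 0.55 and 0.52 on the log2 scale. These are the genes whose response earlier results on the same libraries had shown, so they are no independent support for the rise of Irf1 or Irf9.

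Genes linked to Irf4 in alternative activation split evenly, 4 of 13 rising and 4 falling (median 0.01). Retnla rose by 2.53 on the log2 scale while Chil3 fell by 2.53 and Arg1 fell by 2.77, so these genes went in opposite directions beside a higher Irf4 level. Of 12 inflammatory cytokine genes linked to Irf5, 6 rose and 3 fell (median 0.10). Among those that rose, Il6 was higher by 1.34, Ccl5 by 0.72 and Il12b by 0.71 on the log2 scale. Nos2, inducible nitric oxide synthase, fell by 2.02, Il1b fell by 0.23 and Il1a fell by 0.53 on the log2 scale. Of 15 myeloid genes linked to Irf8, 8 rose and 3 fell (median 0.13), with Lgals3bp, Csf1r and Ctss higher by 0.35, 0.15 and 0.19 on the log2 scale. With upper-quartile scaling or quantile normalization 9 of these 15 rose and 0 fell, and without a variance trend 6 rose and 0 fell. The count that fell was 1 without wild type replicate 2, without transgenic replicate 1, 2 or 3, and with the replicate number as a block. The lists share some genes, such as Cxcl10, Socs1 and Bst2.

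**Figure D4:**
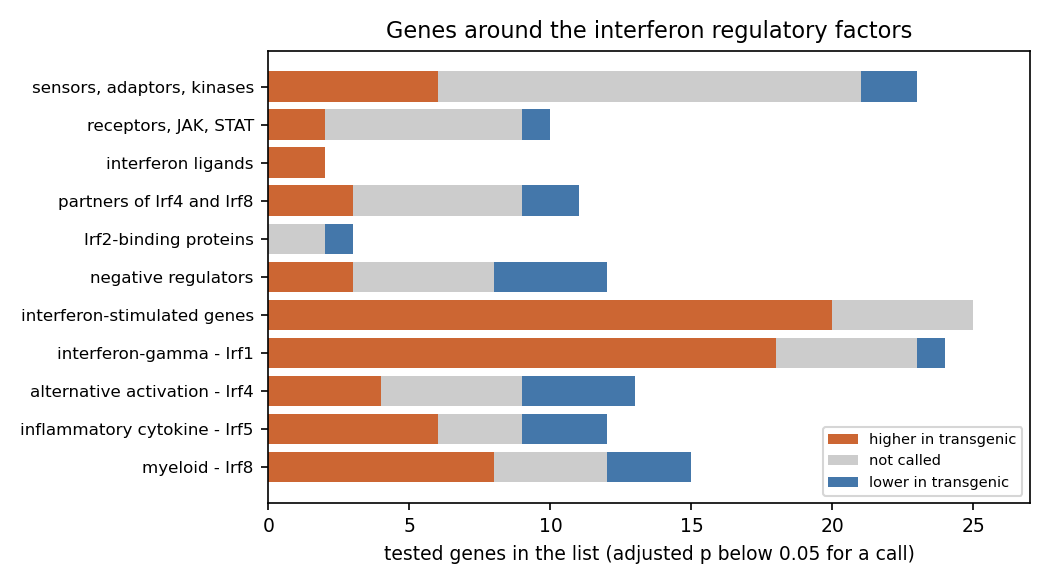
Number of tested genes in each list of pathway or target genes that were higher (orange), lower (blue) or not called (grey) in transgenic against wild type libraries, at a limma adjusted p below 0.05 over all genes. The bar of interferon-stimulated genes holds 20 of 25 higher and 0 lower, and that of alternative activation genes linked to Irf4 holds 4 higher and 4 lower of 13.

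Markers of other cells that express these factors were measured in the same libraries, and their part in the results was not tested. The 12 macrophage markers summed to 20090 to 20330 TPM in wild type and 19500 to 19600 TPM in transgenic libraries, with 4 rising and 5 falling. With upper-quartile scaling 7 rose and 4 fell. Without a variance trend 2 rose and 3 fell, and with quantile normalization 5 rose and 3 fell. No marker of any list was at 0 in all libraries. Clec9a, Siglech, Cox6a2 and Klrk1 passed the filter on low values only through the transgenic group, where they were high, so their calls and the counts of tested markers that include them carry no support. Among markers averaging 5 TPM or more in either group, 2 rose in each of the cDC1, plasmacytoid dendritic cell and T, NK and ILC lists. In the T, NK and ILC list they were Gzma and Gzmb. Gzma reached 5 TPM only in the transgenic group, where it was high, so its place in this count carries no support. Those of the other lists, Batf3 and Cadm1 for cDC1 and Klk1 and Bst2 for plasmacytoid dendritic cells, reached 5 TPM in both groups, as did Gzmb. The 10 cDC1 markers, cells with much Irf8, summed to 141 to 143 TPM in wild type and 172 to 181 TPM in transgenic libraries, and 4 of 9 tested rose and 0 fell. Batf3 gave most of that difference. The defining genes were low, Xcr1 at 0.359 and 0.492 TPM (not tested) and Clec9a at 0.716 and 1.64 TPM. The call of Clec9a (limma adjusted p = 0.0339) was lost without wild type replicate 1 or 2 (0.0501 and 0.0829), without transgenic replicate 2 or 3 (0.0951 and 0.116) and with the replicate number as a block (0.0582).

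Markers of cDC2 and migratory dendritic cells, which express Irf4, summed to 502 to 510 TPM in wild type and 474 to 483 TPM in transgenic libraries. Of the 10 tested, 1 rose (Dpp4) and 2 fell (Fscn1 and Sirpa), but 3 rose without wild type replicate 2, with the authors' log2 values and with voom on recovered reads. The call of Sirpa was lost when the variance was modelled without a trend (limma adjusted p = 0.115). Cd209a was at 6.60 and 9.38 TPM (limma adjusted p = 0.0592) and Ccr7 at 22.0 and 19.3 TPM (0.0945). Cd209a was called under 6 alternatives, among them the replicate block (0.0198) and leaving out wild type replicate 2 (0.0110). Ccr7 was called lower under 3, with the authors' log2 values (0.00893), without wild type replicate 1 (0.0363) and with voom (0.0394). Plasmacytoid dendritic cells carry much Irf7 and Irf8. Their 10 markers summed to 225 to 241 TPM in wild type and 278 to 294 TPM in transgenic libraries, most of it Bst2, which interferon also induces, and 4 of 8 tested rose and 0 fell. Siglech, which defines them, was at 0.737 ± 0.136 and 3.16 ± 0.495 TPM (SD of 3 libraries).

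B and plasma cell markers, whose cells express Irf4 and Irf8, summed to 321 to 334 TPM in wild type and 345 to 360 TPM in transgenic libraries, with 2 of 11 rising (Jchain and Cd22) and 1 falling (Sdc1). Without wild type replicate 2 the count that fell was 2, and with the authors' log2 values or voom it was 3. Sdc1, which marks plasma cells and also epithelium, fell from 29.1 ± 0.810 to 10.85 ± 0.468 TPM (SD of 3 libraries, adjusted p by limma = 3.07e-06). Jchain, of antibody-secreting cells, rose from 165 ± 2.28 to 204 ± 8.77 TPM (SD of 3 libraries, adjusted p by limma = 0.000578). T, NK and ILC markers summed to 131 to 138 TPM in wild type and 152 to 159 TPM in transgenic libraries, with 6 of 13 tested rising and 0 falling, Klrk1 being at 0.797 and 2.38 TPM. Cd3e was at 6.30 and 7.02 TPM (limma adjusted p = 0.333), and Ncr1 had 0 reads in wild type libraries, against 8 in transgenic ones. Neutrophil markers summed to 1026 to 1056 TPM, against 434 to 489 TPM, and 7 of 10 tested fell, with S100a8 at 409 and 154 TPM. Epithelial markers summed to 984 to 986 TPM, against 527 to 543 TPM, and 7 of 11 fell. Epcam, at 42.1 and 36.6 TPM, was among these, and with limma adjusted p = 0.0310 it passed the threshold, and it did not with upper-quartile scaling (0.0669) or without wild type replicate 1 (0.0913) or 3 (0.0914) or transgenic replicate 1 (0.0541), 2 (0.0982) or 3 (0.0597).

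**Figure D5:**
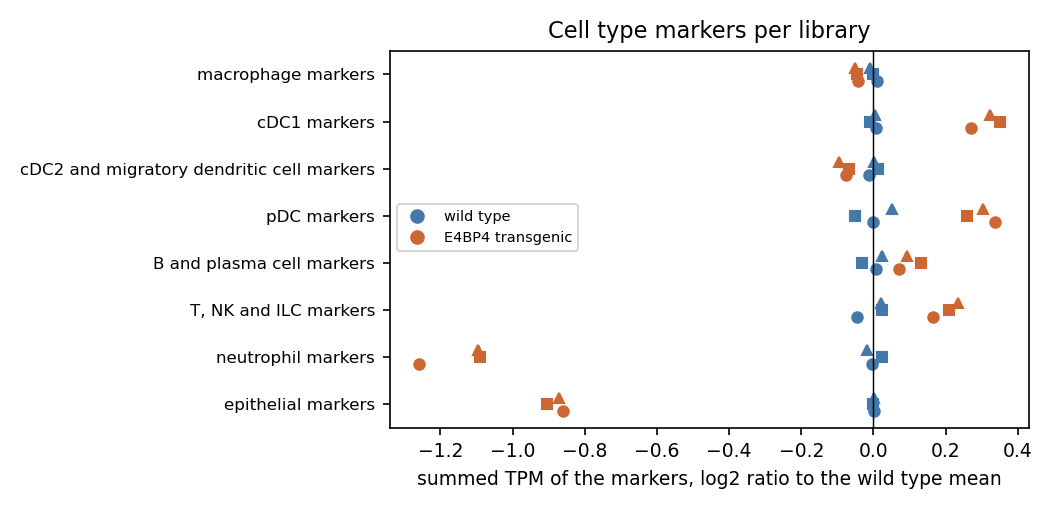
Summed TPM of the markers of each cell type per library, as the log2 ratio to the wild type mean (blue wild type, orange transgenic, shape for the replicate number). Sums of cDC1, pDC, B and plasma cell and T, NK and ILC markers are higher in all 3 transgenic libraries, those of neutrophil and epithelial markers are lower, and the macrophage sum differs least along with that of cDC2 and migratory dendritic cells.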

How the data were processed

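Per the submitters' processing notes, the tools were bcl2fastq, STAR, HOMER 4.11.1 and DESeq2, and the build was mm10. Their order and settings are not stated. The authors deposited TPM over exons for 25124 transcript rows. A second table deposited by the authors holds log2 values of each library with a log2 fold change and p-values for 24421 rows, counted over gene spans. Polyadenylated RNA from 20 ng of total RNA was used, per the labels' protocols.

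Groups came from the sample titles. The test was limma-trend from limma 3.58.1 under R 4.3.3, run on log2(TPM + 1) for all genes averaging 1 TPM or more in either group, with genotype as the single term and a Benjamini-Hochberg threshold of 0.05. Fold changes are on that scale, which understates changes of low genes. The test was run on simulated reads with known changes, to see whether it recovers them. Those reads held sampling noise only, less than these libraries show, and the rate of false calls was not checked. Alternatives were another pseudocount, other filters, upper-quartile scaling, quantile normalization, no variance trend, the authors' log2 values, a replicate block, leaving out each library, and voom on recovered reads. Reads were recovered from TPM multiplied by exon length, and 99.94% or more of the low values of each library came out whole within 0.1 reads. A count of 0 allows 3 reads, or 0.113 to 0.122 TPM for 2000 bases, for counting error only. Libraries of the same group differed beyond sampling noise (chi-square over its degrees of freedom 2.06 to 2.75).

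The members and lists were chosen with earlier results of these data known. Named genes are the members, Nfil3, up to 3 genes of lowest p per list, set markers and partners, and the nearest profiles. Any other gene was named after its values were seen. Some items of the named lists are not reported here.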

Additional observations from a re-analysis of the deposited data

How the results depend on the processing

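Irf1, Irf4, Irf7 and Irf9 were called higher under each of 15 alternatives, with log2 fold changes of 0.38 to 0.53, 0.32 to 0.49, 0.24 to 0.46 and 0.20 to 0.37. Irf5 was called under 14 of 15, Irf2 under 3 and Irf8 under 2, and Irf3 under 0 (-0.13 to -0.04). Over all genes, the authors' log2 values gave 2186 higher and 2628 lower calls over 20884 rows, against 1100 and 1666 over 12633 genes. Voom on recovered reads, an alternative chosen after seeing the data, gave 2508 lower. Leaving out 1 library in turn gave 704 to 883 higher. The lowest counts came without transgenic replicate 2 (704) and without transgenic replicate 3 (721). The cause was not tested. With the replicate block 922 genes were higher and 1457 lower, and the 5 members stayed called. Deviations from the group mean correlated at -0.04 to 0.03 between same-numbered libraries and at -0.04 to 0.06 between the others. With 3 libraries a group these values cannot decide whether the numbers pair the samples, and the labels do not say. Each of the 4 ratios within the family kept its sign under 8 alternatives. Leaving out 1 library could not have changed the sign, because no ratio overlapped between groups. The design of 3 against 3 limits what small differences, such as that of Irf8, can show.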
